A study of Sus scrofa with 12 samples.

Results

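The genes followed here are 10 components of the Notch pathway and of arterial identity, chosen by name: the receptors NOTCH1 and NOTCH4, the ligands DLL4, JAG1 and JAG2, the transcriptional effectors HEY1, HEY2 and HES1, and the guidance molecules EFNB2 and UNC5B. They and the gene lists used below were chosen with earlier results of these data known. Of these 10 genes, 8 could be matched to 1 row each of a count table of 21153 pig genes, and NOTCH1 and JAG2 were not analysed here. Primary ECs of 3 pigs were exposed for 48 h to laminar shear stress in Ibidi flow chambers, in medium with fetal calf serum and heparin on gelatin, and the RNA of 12 cultures was sequenced. Each donor gave 1 culture under low wall shear stress (WSS) of 2 dyne/cm2, 1 under supra-high WSS of 80 dyne/cm2 and 2 under physiological WSS of 30 dyne/cm2. No transgene, drug or mutant was used, and each group has 3 libraries, 1 per donor. The GEO labels call the cells aortic, while the study's methods name coronary arteries, so they are called arterial ECs here.

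The 2 sets at 30 dyne/cm2 are called set 1 and set 2. Cultures at 2 dyne/cm2 were compared with set 1 and cultures at 80 dyne/cm2 with set 2, always within a donor. The study's methods state that compared cultures shared donor and cell passage. They do not say whether the 2 sets shared a passage, so comparisons with the other set may not keep this matching. The series' design text describes different chamber types and seeding densities at 2 and at 80 dyne/cm2, each with its own cultures at 30 dyne/cm2, whereas the study's methods give 1 chamber type and 1 density for all. The design text does not say which set was grown in which chamber, so if the chambers differed, chamber and set cannot be told apart, and neither can chamber and shear stress between 2 and 80 dyne/cm2.

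Notch receptors are activated by ligands on a neighbouring cell: the receptor is cut, and its intracellular domain enters the nucleus, where it joins RBPJ and switches on genes of the HEY and HES families. In arteries this signalling sets the arterial character of the endothelium, of which EFNB2 is a classical marker, and in cultured ECs it is known to respond to flow. DLL4 and JAG1 can act on the same receptors with different outcomes in sprouting vessels.

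The genes lie apart in the pig genome. In the RefSeq annotation of Sscrofa11.1, the assembly used for the counts, NOTCH4 spans chr7:24231293-24256281 and JAG1 chr17:19591248-19629659. DLL4 (chr1:130376720-130386411) and HEY2 (chr1:37219887-37231321) share a chromosome without being neighbours. HEY1 lies at chr4:56859640-56863807, HES1 at chr13:131135970-131137865, EFNB2 at chr11:74188337-74232768 and UNC5B at chr14:74120055-74208055. Reads were counted over exons, and no exon lengths were used here, so levels are compared between libraries and not between genes.

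Total counts lay between 29606854 and 41058902 per library. Levels are CPM (counts scaled to library size) on library sizes adjusted by TMM, a scaling that corrects for differences in composition. The endothelial character of the cultures was clear in all libraries, with PECAM1 between 1617 and 3938 CPM and CDH5 between 1328 and 2222 CPM. The 8 endothelial markers that could be matched summed to 4946 to 5848 CPM at 2 dyne/cm2, 7004 to 7939 in set 1, 6544 to 7637 in set 2 and 8268 to 8569 at 80 dyne/cm2. Single markers moved more than this sum: at 2 dyne/cm2 their fitted log2 fold changes against set 1 ran from -2.95 to 0.50. By the test described below, 1 rose and 3 fell there, beside 13.4% and 12.4% of all genes tested. Markers of smooth muscle cells and pericytes summed to 56.2 to 93.1 CPM over all libraries and were mostly SMTN, with DES at 0 throughout and ACTA2 at 0.437 CPM or less. This sum too hides changes of single markers, here at low levels. CSPG4 had 0 to 1 counts at 2 dyne/cm2 and 43 to 189 in set 1, and PDGFRB ranged from 0.208 to 7.11 CPM and LMOD1 from 0.694 to 5.18 CPM over all libraries. The 6 leukocyte markers summed to 11.5 to 33.1 CPM, with PTPRC at 0.0615 CPM or less. The 6 fibroblast markers, mostly COL3A1, moved with the conditions: they summed to 366 to 1305 CPM at 2 dyne/cm2, 163 to 302 in set 1, 128 to 716 in set 2 and 46.3 to 172 at 80 dyne/cm2. Their part in the results below was not tested. In bulk RNA a change in the number of cells that express a gene and a change in its RNA per cell cannot be told apart.

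**Figure D1:**
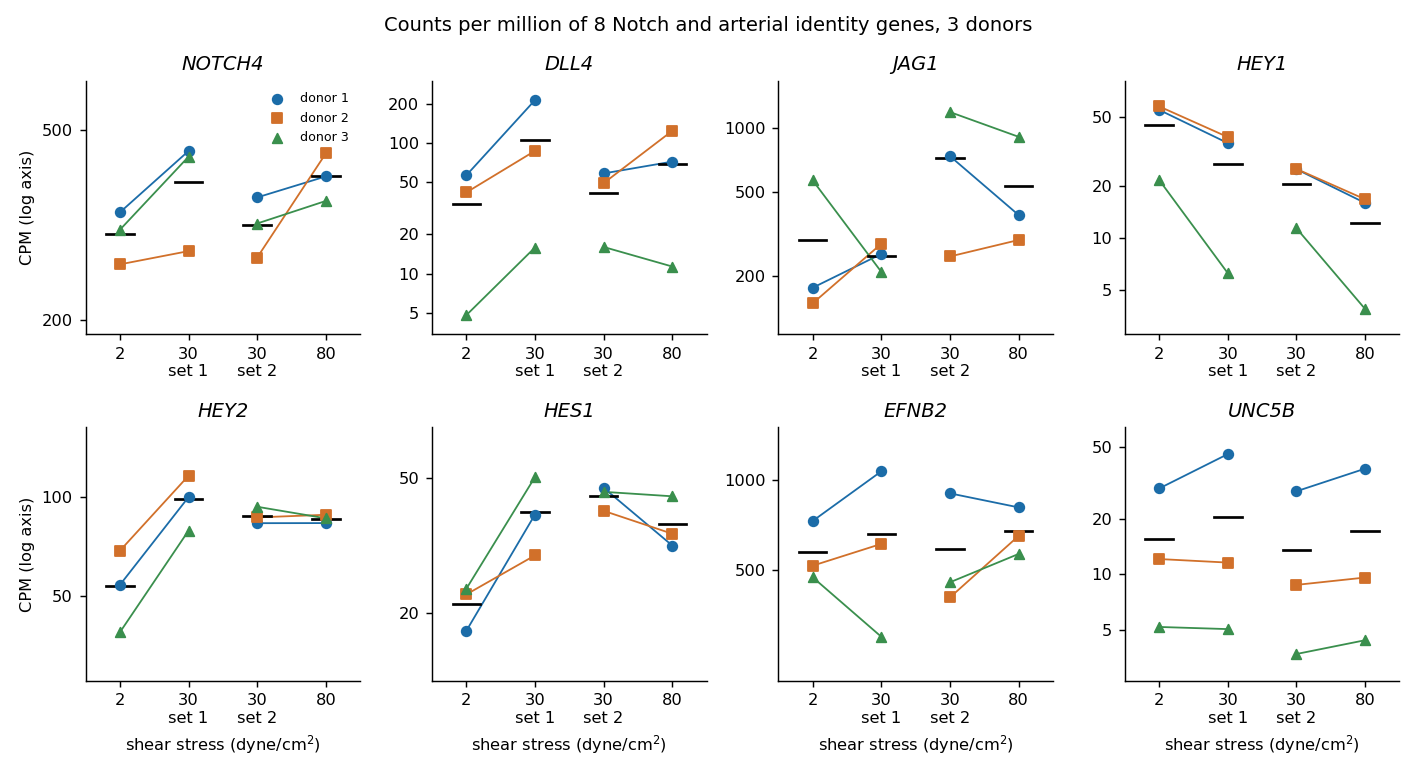
Level of each gene in CPM (log axis) against shear stress in dyne/cm2. Symbols are the 12 libraries, coloured by donor, lines join the 2 cultures compared within a donor, and black bars are means of 3 donors. HEY1 falls from left to right within each joined pair of every donor, from 21.7 to 57.5 CPM at 2 dyne/cm2 to 3.90 to 16.8 CPM at 80 dyne/cm2, while HEY2 and HES1 are lowest at 2 dyne/cm2.

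Under low WSS, HEY1 rose, while the ligand DLL4 and the other two effectors, HEY2 and HES1, fell. The receptor NOTCH4, the ligand JAG1 and both guidance molecules did not pass the test. A gene passed the test when its Benjamini-Hochberg adjusted p in edgeR's quasi-likelihood test, with a term for the donor, was under 0.05 over all genes tested. Of the 8 genes, 4 passed, 1 higher and 3 lower, whereas 25.8% of all 11226 genes tested passed, 13.4% higher and 12.4% lower. Since the 8 genes were chosen with earlier results of these data known, such shares are a description and not a test. Only DLL4 also changed at least 2-fold, beside 9.60% of all genes. The direction was the same in all 3 donors for 5 of the 8 genes, against 66.0% of all genes. The groups did not overlap for 2 of the 8, against 37.9% of all genes. The median log2 fold change of the 8 genes was -0.26, and that of all genes tested was 0.0025.

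Under supra-high WSS, HEY1 was the 1 gene of the 8 that passed, and it fell. Of all 11187 genes tested, 8.40% passed and 4.04% passed as lower, and none of the 8 genes changed at least 2-fold, beside 2.20% of all genes. At an unadjusted p under 0.05 the count was 3 of 8, but the share of all genes at that threshold was not worked out. DESeq2 called the same number of the 8 by its adjusted p as edgeR, 1, a count with no share of all genes beside it. By adjusted p with at least a 2-fold change it called 0 of the 8 and 236 of all genes. The direction was the same in 3 donors for 4 of the 8 genes, against 49.6% of all genes, and the groups overlapped for all 8, while 14.9% of all genes had groups that did not overlap. The responses to low and to supra-high WSS were then compared in 1 model of all 12 libraries. They differed for 4 of the 8 genes, NOTCH4, DLL4, HEY1 and HEY2, beside 37.1% of all 11568 genes tested.

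The donor term decided these calls. Without it, none of the 8 genes passed in any of these comparisons by edgeR, when 11.1% of all genes passed at 2 dyne/cm2, 0% at 80 dyne/cm2 and 15.1% for the difference between the responses. At an unadjusted p under 0.05 the counts without the donor term were 2 of 8 at 2 dyne/cm2, 0 of 8 at 80 dyne/cm2 and 3 of 8 for the difference. These counts too have no share of all genes beside them.

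**Figure D2:**
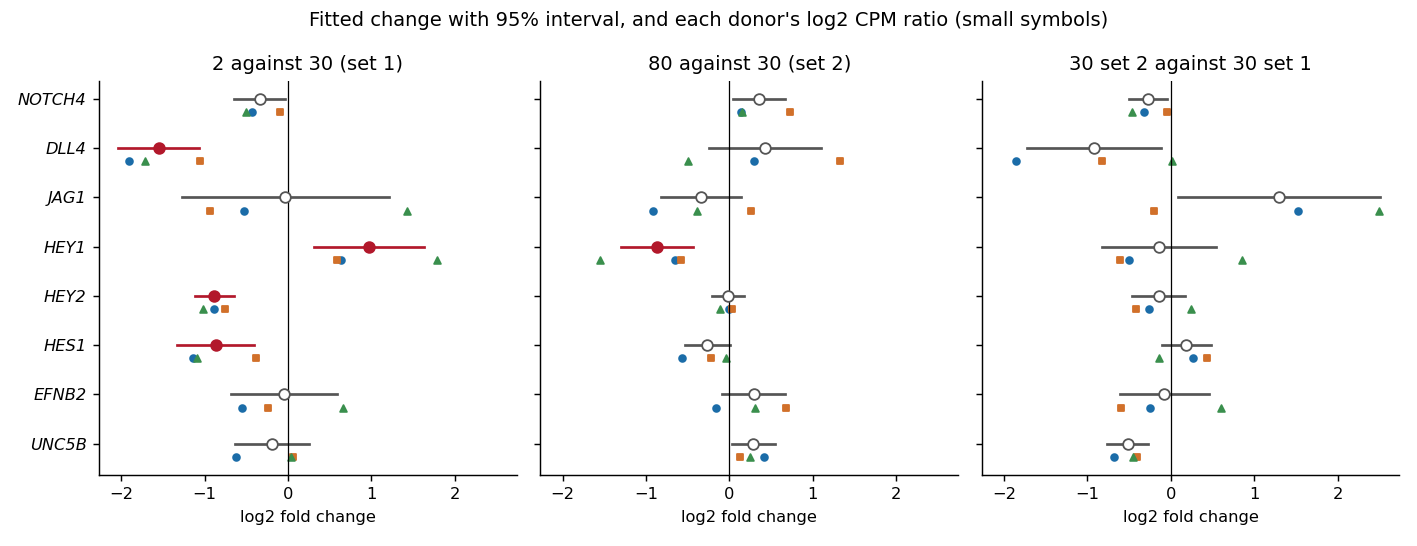
Log2 fold change of each gene in 3 comparisons, with its 95% interval from the fit with a donor term (large circles, filled where the adjusted p was under 0.05), and the log2 CPM ratio of each donor (small symbols, coloured by donor). The 3 ratios of HEY1 lie above 0 at 2 dyne/cm2 and below 0 at 80 dyne/cm2, whereas those of JAG1 lie on both sides of 0 in each comparison.

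NOTCH4, the receptor found mainly in endothelium, was well expressed in every library. It measured 336, 261 and 309 CPM at 2 dyne/cm2 in donors 1, 2 and 3, against 451, 279 and 439 CPM in set 1. It measured 399, 446 and 355 CPM at 80 dyne/cm2, against 361, 270 and 318 CPM in set 2. Each donor was lower at 2 dyne/cm2 than in set 1 and higher at 80 dyne/cm2 than in set 2, but the groups overlapped, and donors 1 and 3 were lower at 80 dyne/cm2 than in set 1. The log2 fold change was -0.34 (SE 0.12, 95% interval -0.64 to -0.04) at 2 dyne/cm2 with an adjusted p of 0.093, and 0.35 (SE 0.13, 0.04 to 0.66) at 80 dyne/cm2 with an adjusted p of 0.15, so neither change passed. Without replicate 1 of either group, the change at 80 dyne/cm2 was 0.45 with an adjusted p of 0.0042 to 0.0048. Against the other set, the log2 fold change was -0.07 (SE 0.07, adjusted p 0.51) at 2 dyne/cm2 and 0.08 (SE 0.20, adjusted p 0.90) at 80 dyne/cm2. The difference between the responses was 0.72 (SE 0.22) with an adjusted p of 0.031, and with the sets exchanged it was 0.14 with an adjusted p of 0.71. The difference passed in 4 of 12 fits that each left out 1 library, with an adjusted p between 0.056 and 0.078 without each of the 3 libraries at 2 dyne/cm2, replicates 1 and 3 of set 1 and the 3 libraries of set 2. Set 2 itself was lower than set 1 in all 3 donors, by 0.27 (SE 0.09) on the log2 scale, with an adjusted p of 0.22.

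DLL4, the Notch ligand of arterial and sprouting endothelium, fell under low WSS. It measured 56.5, 41.8 and 4.83 CPM at 2 dyne/cm2, against 212, 86.9 and 15.9 CPM in set 1. All 3 donors were lower, although donor 3 had little DLL4 in any culture and the groups therefore overlapped. Its log2 fold change was -1.55 (SE 0.19, 95% interval -2.04 to -1.06), which is 2.93-fold lower, with an adjusted p of 0.009. Leaving out any 1 of the 6 libraries kept it past the test, with values from -1.82 to -1.36.

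DLL4 at 80 dyne/cm2 measured 72.0, 124 and 11.4 CPM, against 58.5, 49.3 and 16 CPM in set 2. Donors 1 and 2 were higher and donor 3 lower, and the log2 fold change of 0.43 (SE 0.29, 95% interval -0.25 to 1.10) did not pass, with an adjusted p of 0.39. Without replicate 1 of either group it passed, with a log2 fold change of 0.51 and an adjusted p of 0.0016 to 0.0019. The difference between the responses to both kinds of WSS was 1.99 (SE 0.57) with an adjusted p of 0.023. It missed the threshold, with an adjusted p of 0.063 to 0.066, without replicate 1 of set 1, replicate 1 or 2 of set 2 or replicate 2 at 80 dyne/cm2.

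The fall of DLL4 depended on the set at 30 dyne/cm2. In donors 1 and 2 its level in set 2 was closer to that at 2 dyne/cm2 than to set 1. Against set 2, DLL4 at 2 dyne/cm2 was lower in all 3 donors but by 0.60 on the log2 scale (SE 0.34, 95% interval -1.47 to 0.28), with an adjusted p of 0.25. Set 2 against set 1 gave a log2 fold change of -0.92 (SE 0.33) with an adjusted p of 0.22.

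JAG1, another Notch ligand, had a larger fitted difference between the 2 sets at 30 dyne/cm2 than at 2 or at 80 dyne/cm2. It measured 177, 149 and 566 CPM at 2 dyne/cm2, against 255, 285 and 210 CPM in set 1. It measured 388, 297 and 907 CPM at 80 dyne/cm2, against 735, 248 and 1186 CPM in set 2. Donors 1 and 3 had far more JAG1 in set 2 than in set 1, and donor 2 had similar levels in both. The log2 fold change was -0.03 (SE 0.48, 95% interval -1.28 to 1.21) at 2 dyne/cm2 and -0.34 (SE 0.20, -0.82 to 0.14) at 80 dyne/cm2, with adjusted p of 0.97 and 0.33. Between the sets it was 1.30 (SE 0.49, 95% interval 0.09 to 2.52), with an adjusted p of 0.24. Without replicate 2 of either set this gap was 2.02 and passed, with an adjusted p of 0.021 to 0.048, and without replicate 3 it was 0.67. The value at 2 dyne/cm2 turned on replicate 3: without it in either group, the log2 fold change was -0.72 with an adjusted p of 0.035 to 0.041. Against set 2, JAG1 at 2 dyne/cm2 was lower in all 3 donors, by 1.29 on the log2 scale (SE 0.27) with an adjusted p of 0.032.

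HEY1, a repressor of transcription and direct Notch target, was the gene whose level followed shear stress downwards in every donor. It measured 54.9, 57.5 and 21.7 CPM at 2 dyne/cm2, against 35.3, 38.3 and 6.28 CPM in set 1. It measured 16, 16.8 and 3.90 CPM at 80 dyne/cm2, against 25, 25.1 and 11.4 CPM in set 2. Donors 1 and 2 were alike and donor 3 had less in every condition, so that the groups overlapped although no donor went against the order. Its log2 fold change was 0.98 (SE 0.26, 95% interval 0.32 to 1.63) at 2 dyne/cm2, or 1.97-fold higher, with an adjusted p of 0.049. The change at 80 dyne/cm2 was -0.87 (SE 0.18, -1.30 to -0.44), or 1.83-fold lower, with an adjusted p of 0.032. The responses differed by -1.85 (SE 0.35) with an adjusted p of 0.0032, and this passed in all 12 fits that left out 1 library.

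The separate calls of HEY1 stood close to the threshold. At 2 dyne/cm2 the adjusted p was 0.051 to 0.076 without replicate 1 or 2 of either group, with log2 fold changes of 1.16 to 1.18. Without replicate 3 of either group the change was only 0.62, with an adjusted p of 0.026 to 0.030. The adjusted p at 80 dyne/cm2 was 0.11 without replicate 3 of either group, where the change was -0.60 to -0.61, and 0.053 without replicate 2 of set 2. The other set at 30 dyne/cm2 gave much the same sizes, 1.09 (SE 0.09, adjusted p 0.0054) at 2 dyne/cm2 and -1.01 (SE 0.14, adjusted p 0.064) at 80 dyne/cm2, with the same direction in 3 of 3 donors each time. Set 2 against set 1 gave -0.14 (SE 0.28, 95% interval -0.82 to 0.54), but the donors went both ways, at -0.50, -0.61 and 0.86. In donors 1 and 2 these gaps between cultures of 1 shear stress were about as large as the changes under low WSS, 0.64 and 0.59, and under supra-high WSS, -0.65 and -0.58.

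HEY2, the related repressor that favours arterial over venous fate in development, changed in the opposite direction to HEY1 under low WSS. It measured 54.0, 68.6 and 38.9 CPM at 2 dyne/cm2, against 99.6, 116 and 78.9 CPM in set 1. The groups did not overlap. Its fitted log2 fold change was -0.88 (SE 0.09, 95% interval -1.11 to -0.65), or 1.84-fold lower, with an adjusted p of 0.0068. It passed without each of the 6 libraries and against set 2, where it was -0.74 (SE 0.19) with an adjusted p of 0.049.

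HEY2 did not pass at 80 dyne/cm2. It measured 83.2, 88.1 and 86.0 CPM, against 83.1, 86.5 and 93.2 CPM in set 2. The log2 fold change was -0.02 (SE 0.08, adjusted p 0.91), and its 95% interval ran from -0.21 to 0.17. The responses to low and supra-high WSS differed by 0.84 (SE 0.22) with an adjusted p of 0.015, in all 12 fits that left out 1 library.

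HES1, a repressor of the hairy and enhancer of split family and a Notch target in many tissues, also fell under low WSS. It measured 17.8, 22.7 and 23.6 CPM at 2 dyne/cm2, against 39.0, 29.6 and 50.3 CPM in set 1. The groups did not overlap, and all 3 donors were lower. The log2 fold change was -0.87 (SE 0.18, 95% interval -1.33 to -0.41), or 1.82-fold lower, with an adjusted p of 0.028. The adjusted p was 0.076 to 0.094 without replicate 1 or 3 of either group, at log2 fold changes of -0.75 to -0.73. Against set 2 it was -1.06 (SE 0.13) with an adjusted p of 0.011.

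HES1 at 80 dyne/cm2 measured 31.7, 34.3 and 44.2 CPM, against 46.8, 40.0 and 45.5 CPM in set 2. Each donor was lower, by 0.26 on the log2 scale in the fit (SE 0.12, 95% interval -0.53 to 0.0045), with an adjusted p of 0.20. The responses to low and supra-high WSS differed by 0.59 (SE 0.21) with an adjusted p of 0.051. With the sets exchanged this difference was 0.95 (SE 0.21) and passed, with an adjusted p of 0.011. It also passed with DESeq2 (0.60, adjusted p 0.030), and in 4 of 12 fits that each left out 1 library.

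Of the guidance molecules, EFNB2, the membrane-bound ligand that marks arterial endothelium, was high in all libraries and showed no common direction. It measured 730, 518 and 474 CPM at 2 dyne/cm2, against 1069, 613 and 301 CPM in set 1. It measured 810, 652 and 567 CPM at 80 dyne/cm2, against 902, 407 and 457 CPM in set 2. Donors went in both directions in each comparison. Its fitted change was -0.04 (SE 0.25, 95% interval -0.68 to 0.59) at 2 dyne/cm2 and 0.29 (SE 0.16, -0.08 to 0.66) at 80 dyne/cm2, with adjusted p of 0.91 and 0.29. Without replicate 1 of either group, where donor 1 was lower at 80 dyne/cm2, the latter was 0.51 with an adjusted p of 0.0018 to 0.0019.

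UNC5B, a netrin receptor of arterial and tip cell endothelium, differed most between donors. It measured 29.5, 12.1 and 5.16 CPM at 2 dyne/cm2, against 45.5, 11.6 and 5.03 CPM in set 1. It measured 37.9, 9.62 and 4.37 CPM at 80 dyne/cm2, against 28.5, 8.77 and 3.67 CPM in set 2. Its fitted change on the log2 scale was -0.19 (SE 0.17, 95% interval -0.64 to 0.26) at 2 dyne/cm2 and 0.28 (SE 0.11, 0.03 to 0.54) at 80 dyne/cm2, with adjusted p of 0.44 and 0.16. Its level in set 2 was lower than in set 1 in all 3 donors, by 0.52 on the log2 scale (SE 0.10), with an adjusted p of 0.11. This fitted gap between cultures of 1 shear stress was larger than either fitted change with shear stress.

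**Figure D3:**
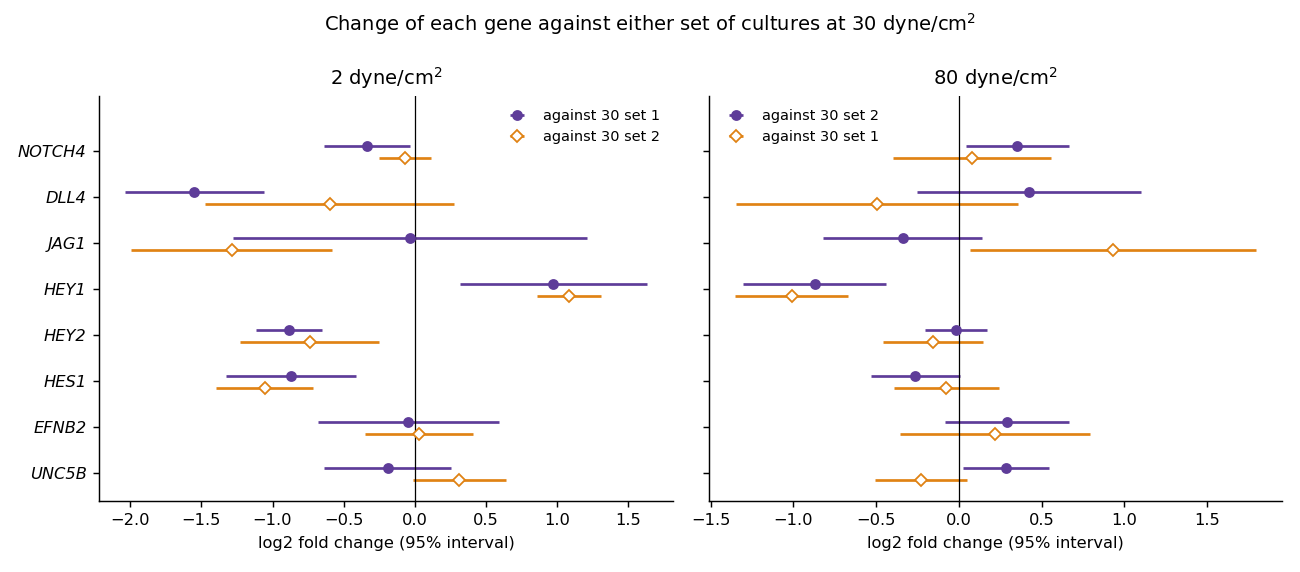
Log2 fold change (horizontal axis, with 95% interval) of each gene at 2 and at 80 dyne/cm2, against the set at 30 dyne/cm2 used in the comparison (filled circles) and against the other set (open diamonds). HEY1, HEY2 and HES1 at 2 dyne/cm2 lie on the same side of 0 with both sets, DLL4 shrinks from -1.55 to -0.60, and JAG1 at 80 dyne/cm2 moves from -0.34 to 0.93.

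The 2 sets at 30 dyne/cm2 show how far cultures of 1 shear stress differed, a gap that may include chamber, seeding density and cell passage. Between them, none of the 8 genes passed in edgeR, beside 0.0179% of all 11163 genes tested. At an unadjusted p under 0.05 the count was 4 of 8, but the share of all genes at that threshold was not worked out. DESeq2 called 1 of the 8 by its adjusted p alone, a count with no share of all genes beside it. By adjusted p with at least a 2-fold change it called 0 of the 8 and 66 of all genes. The direction was the same in 3 donors for 2 of the 8 genes, NOTCH4 and UNC5B, against 44.1% of all genes, and the groups overlapped for all 8, while they did not for 10.3% of all genes. With the other set as control, HEY1, HEY2 and HES1 passed at 2 dyne/cm2 as before and JAG1 passed in place of DLL4. No gene of the 8 passed at 80 dyne/cm2 with set 1 as control, a fit in which few genes of any kind passed. With the other set as control, 867 of all genes passed with at least a 2-fold change at 2 dyne/cm2 and 23 at 80 dyne/cm2. The main fits gave 1078 and 246.

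The variance of log2 CPM over the 12 libraries was divided between the donor, the 4 culture conditions and the rest, and for 4 of the 8 genes the donor took the largest share. It took 96.7% of the variance of UNC5B, 77.9% of DLL4, 69.7% of EFNB2 and 55.0% of HEY1. Mean DLL4 was 7.75 times higher in the highest donor than in the lowest, and UNC5B 7.69 times. The 4 culture conditions took 78.0% of the variance of HES1 and 73.5% of HEY2, whose donors differed by 1.27 and 1.25 times. Over 11456 genes the median share was 30.8% for the donor and 42.0% for the condition.

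**Figure D4:**
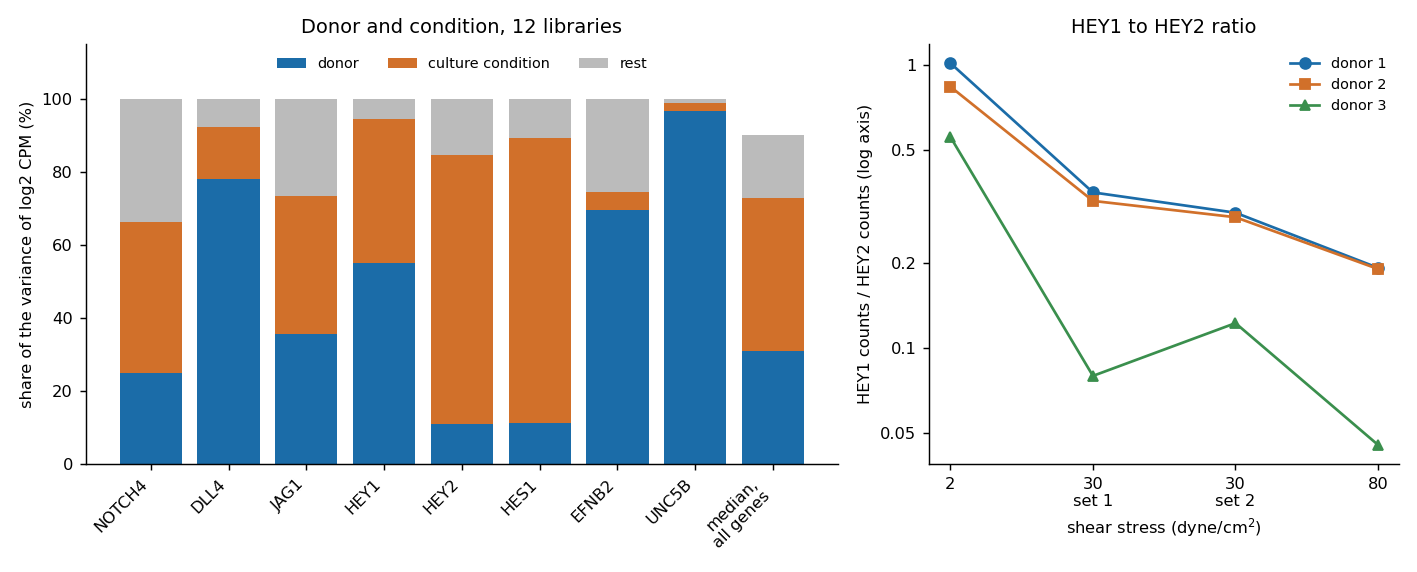
Left, share of the variance of log2 CPM (%) that the donor, the 4 culture conditions and the rest take for each gene, with the separate medians of all genes, which need not add up to 100%. Right, ratio of HEY1 to HEY2 counts (log axis) in each library against shear stress, by donor. The ratio is 0.557 to 1.02 at 2 dyne/cm2 and 0.0454 to 0.192 at 80 dyne/cm2.

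The contrast of HEY1 and HEY2 can be given within each library as the ratio of their counts, a quantity chosen after their values were seen. It was 1.02, 0.839 and 0.557 at 2 dyne/cm2 in donors 1, 2 and 3. In the cultures at 30 dyne/cm2 it was 0.355, 0.331 and 0.0797 in set 1 and 0.301, 0.290 and 0.122 in set 2. At 80 dyne/cm2 it was 0.192, 0.190 and 0.0454. In each of the 3 donors, the ratio was higher at 2 dyne/cm2 than in both sets at 30 dyne/cm2, and lower at 80 dyne/cm2 than in both. Between the 2 sets the donors did not share an order.

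After removal of donor means, the levels of HEY2 and HES1 followed each other over the 12 libraries (Pearson's r = 0.80), as did DLL4 and HEY2 (r = 0.76) and DLL4 and NOTCH4 (r = 0.72). HEY1 ran against HES1 (r = -0.69), HEY2 (r = -0.60) and NOTCH4 (r = -0.60). These 12 points share donors and conditions, so the values are a description. Of 10060 genes, those most like DLL4 were PALM2AKAP2 (r = 0.934), GID4 (0.922), CCDC127 (0.918), SERTAD3 (0.917) and ATP6AP1 (0.910). Those most like HEY1 were CPZ (r = 0.969), MORN2 (0.968), SLC46A1 (0.965), RAB6B (0.964) and POLR1E (0.961).

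The other genes of the Notch pathway moved in both directions too. Of 58 listed, 54 were matched and 46 tested. At 2 dyne/cm2, 7 rose, 10 fell and 29 did not pass, with a median log2 fold change of 0.02. Under supra-high WSS, 4 rose, 2 fell and 40 did not pass, with a median of 0.07. Without the donor term 8 passed at 2 dyne/cm2 and 0 at 80 dyne/cm2. With set 1 as control at 80 dyne/cm2 0 passed, in a fit where only 23 of all genes passed with at least a 2-fold change. The shares passed with the donor term, 17 of 46 and 6 of 46, stand beside 25.8% and 8.40% of all genes. This list too was chosen with earlier results of these data known, so these shares are a description.

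Among ligands and receptors, DLL1, a further activating ligand, fell with DLL4 at 2 dyne/cm2 (log2 fold change -2.17, SE 0.28, adjusted p 0.010), from 2.09 ± 0.97 to 0.447 ± 0.081 CPM (SD, n = 3). Only libraries of set 1 reached the filter of 1 CPM, so DLL1 entered this test through the group where it was high. DLL1 at 80 dyne/cm2 was 0.72 higher on the log2 scale (SE 0.19, adjusted p 0.064). NOTCH2 did not pass, at 0.35 (SE 0.14, adjusted p 0.13) and 0.04 (SE 0.08). Without replicate 2 of either group, its value at 2 dyne/cm2 was 0.54 with an adjusted p of 0.041, and against set 2 it was 0.53 with an adjusted p of 0.010. With the sets exchanged, the responses of NOTCH2 differed by -0.70 with an adjusted p of 0.027. NOTCH3, the receptor of vascular smooth muscle, averaged 0.203 to 1.32 CPM in the 4 groups and was too low to be tested. RBPJ, the DNA-binding partner of cleaved Notch, did not pass in either comparison (log2 fold change 0.15, SE 0.13, and 0.03, SE 0.10).

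Of the 3 other targets of the HES and HEY families tested at 2 dyne/cm2, 2 fell. HES2 fell from 119 ± 49.5 to 16.7 ± 2.47 CPM (log2 fold change -2.76, SE 0.26, adjusted p 0.0061), and HES4 fell by 1.54 (SE 0.17, adjusted p 0.0075). HEYL, the third HEY family member, had 0 counts in all 3 libraries at 2 dyne/cm2 and 11 to 87 in set 1. Taking 3 counts per library as the floor, the mean of set 1 (0.971 ± 1.01 CPM) was 10.6 times the floor. This is a ratio of means, and the set 1 library with 11 counts lay nearer the floor. HEYL was too low to be tested there. Under supra-high WSS HES2 rose (0.51, SE 0.10, adjusted p 0.024) and HEYL fell (-1.19, SE 0.29, adjusted p 0.045), but neither call held with set 1 as control. Their adjusted p was above 0.05 without replicate 2 or 3 of either group for HES2 (0.078 to 0.096) and without each of the 6 libraries for HEYL (0.053 to 0.12).

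**Figure D5:**
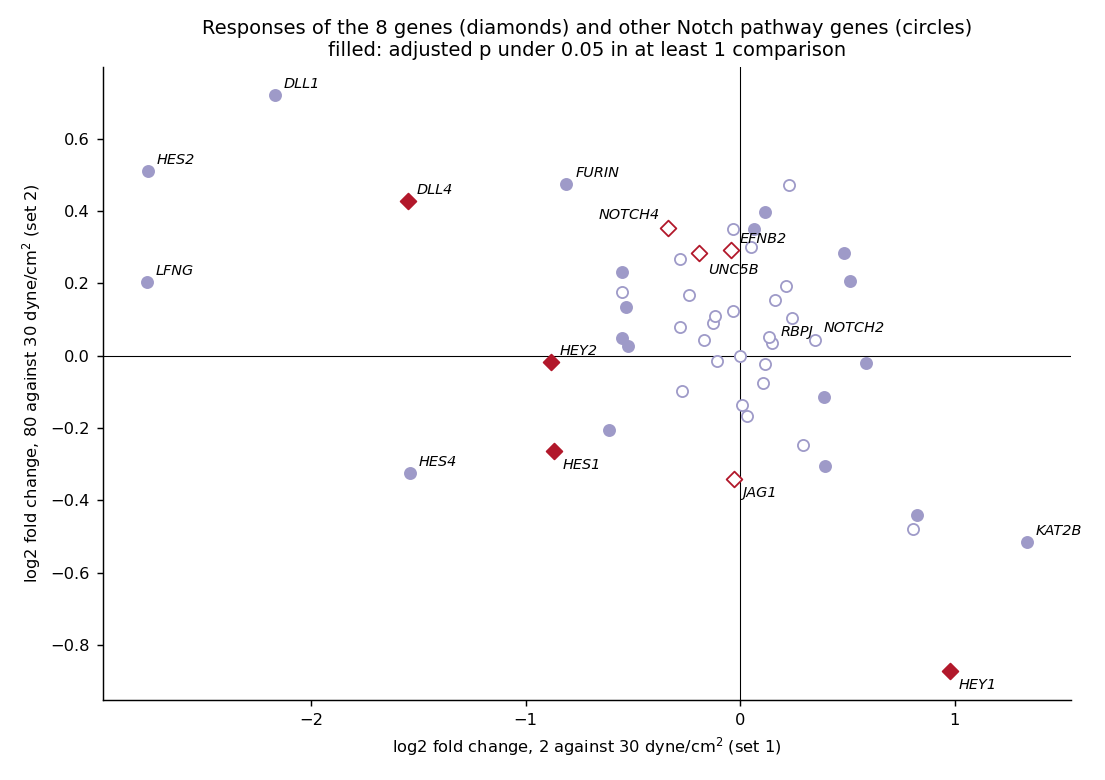
Log2 fold change at 80 dyne/cm2 against log2 fold change at 2 dyne/cm2 for the 8 genes (diamonds) and 45 other Notch pathway genes tested in both comparisons (circles), filled where the adjusted p was under 0.05 in at least 1 comparison. HEY1 (0.98 and -0.87) and KAT2B (1.34 and -0.51) lie at the lower right, and DLL1, HES2 and DLL4 at the upper left.

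Of the 9 proteases and gamma-secretase subunits that mature and cut the receptor, 2 rose, 4 fell and 3 did not pass at 2 dyne/cm2. The examples given here were chosen after their values were seen. FURIN, which cleaves the receptor on its way to the surface, fell by 0.81 (SE 0.13, adjusted p 0.016) and rose by 0.47 (SE 0.11, adjusted p 0.037) at 80 dyne/cm2. ADAM10 and ADAM17, which cut the receptor at the surface after it binds a ligand, fell by 0.53 (SE 0.08) and 0.55 (SE 0.09), with adjusted p of 0.013 and 0.017. The levels of these genes changed by less than 2-fold.

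Of 5 enzymes that add sugars to the receptor, LFNG fell at 2 dyne/cm2, from 202 ± 180.0 to 27.5 ± 20.7 CPM (log2 fold change -2.77, SE 0.43, adjusted p 0.015), and the other 4 did not pass. LFNG modifies the receptor's response to its ligands. Without replicate 3 of set 1 its adjusted p was 0.055. Of 13 genes of the nuclear complex tested, 2 rose and 0 fell. KAT2B, an acetyltransferase that acts as a coactivator, rose from 32.9 ± 11.0 to 87.2 ± 46.5 CPM (1.34, SE 0.13, adjusted p 0.0064). KAT2B fell at 80 dyne/cm2 by 0.51 (SE 0.10, adjusted p 0.023), but against set 1 its log2 fold change there was 0.000197. Its adjusted p at 80 dyne/cm2 was 0.079 to 0.086 without replicate 2 or 3 of either group. Of 14 genes that control the turnover of receptors and ligands, 3 rose and 2 fell at 2 dyne/cm2, none of them by 2-fold.

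Other arterial genes did not move as 1 group. Of 16 listed, 14 were matched and 13 tested. At 2 dyne/cm2, 2 rose, 4 fell and 7 did not pass, with a median log2 fold change of -0.35, and at 80 dyne/cm2, 2 rose, 1 fell and 10 did not pass, with a median of -0.02. DEPP1, a FOXO-regulated gene that is known from arterial ECs, fell from 18.8 ± 10.1 to 0.806 ± 0.282 CPM at 2 dyne/cm2 (-4.49, SE 0.19, adjusted p 0.0024) and rose at 80 dyne/cm2 (1.78, SE 0.31, adjusted p 0.016). SEMA3G, a secreted semaphorin of arterial endothelium, fell at 2 dyne/cm2 (-1.87, SE 0.30, adjusted p 0.016). CXCL12, the chemokine that arterial ECs make, rose at both, from 0.665 ± 0.513 to 2.10 ± 2.02 CPM at 2 dyne/cm2 and from 0.920 ± 0.719 to 3.21 ± 2.97 CPM at 80 dyne/cm2. Its adjusted p was 0.020 and 0.0079, and 0.079 and 0.067 against the other set. Without replicate 2 of either group DEPP1 at 80 dyne/cm2 had an adjusted p of 0.056 to 0.060, and without replicate 3 of set 1 CXCL12 at 2 dyne/cm2 had 0.052. CXCL12 lay near the filter of 1 CPM. In each comparison it could be tested in only 3 of the 6 fits that left out 1 library.

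GJA4, which encodes the arterial gap junction protein connexin 37, is an extreme case and not a typical one. Its fitted rise from set 1 to set 2, 2.40 on the log2 scale, was the largest of all 11163 genes tested. This gap did not pass in the main edgeR fit, but it passed with DESeq2 (2.36, adjusted p 0.0072) and without a filter (2.39, adjusted p 0.030). GJA4 rose at 2 dyne/cm2 from 14.6 ± 2.48 CPM in set 1 to 85.6 ± 46.9 CPM (2.41, SE 0.37, adjusted p 0.015), but it averaged 93.9 ± 63.0 CPM in set 2. Against set 2, the change at 2 dyne/cm2 was 0.02 on the log2 scale with an adjusted p of 0.99. GJA4 at 80 dyne/cm2 had a log2 fold change of -0.40 (SE 0.14, adjusted p 0.12), and against set 1 one of 1.98. Without replicate 2 of either group its adjusted p at 2 dyne/cm2 was 0.051 to 0.052. GJA5, the gene of connexin 40, did not pass in either comparison (0.55, SE 0.37, and 0.38, SE 0.14), and neither did SOX18 (-0.46, SE 0.16, and -0.54, SE 0.14) or NRP1 (-0.13, SE 0.08, and -0.29, SE 0.08). SOX18 passed under other settings: at 2 dyne/cm2 against set 2 (-1.0, adjusted p 0.014) and with all 12 libraries in 1 fit (adjusted p 0.037), and at 80 dyne/cm2 with DESeq2 (adjusted p 0.040) and without a filter on low counts (0.029).

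Of 11 venous and lymphatic markers listed, 10 were matched and 6 could be tested at 2 dyne/cm2. Of these 6, 1 rose, 4 fell and 1 did not pass, with a median log2 fold change of -0.83, while 12.4% of all genes tested fell and 13.4% rose. PLVAP, the diaphragm protein of fenestrated and venous endothelium, fell from 4.74 ± 0.712 to 0.739 ± 0.378 CPM (-2.71, SE 0.34, adjusted p 0.0096). NRP2 (-1.0, SE 0.18, adjusted p 0.020) and EMCN (-1.25, SE 0.28, adjusted p 0.034) fell as well. FLT4, the receptor of lymphatic growth factors, rose from 0.895 ± 0.286 to 2.40 ± 0.955 CPM (1.42, SE 0.31, adjusted p 0.031). NR2F2, the transcription factor of venous fate, did not pass (-0.35, SE 0.44, adjusted p 0.57). At 80 dyne/cm2, of 5 tested, only EMCN passed, and it rose (2.33, SE 0.35, adjusted p 0.011). EMCN passed in neither comparison with the other set as control (-0.53, adjusted p 0.24, and 1.56, adjusted p 0.33). At 2 dyne/cm2, leaving out 1 replicate of either group raised the adjusted p above 0.05 for NRP2 (replicate 2, 0.065 to 0.066), EMCN (replicate 2, 0.051 to 0.052) and FLT4 (replicate 1 or 3, 0.10 to 0.11).

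Some partners of EFNB2 and UNC5B passed the test. EPHB4, the venous receptor of EFNB2, fell at 2 dyne/cm2 (-0.65, SE 0.10, adjusted p 0.014) and was 0.48 higher at 80 dyne/cm2 (SE 0.12, adjusted p 0.056). The former had an adjusted p of 0.057 to 0.060 without replicate 1 of either group. NTN1, a netrin and thus a ligand of the UNC5 receptors, fell from 13.2 ± 9.24 to 4.86 ± 2.89 CPM at 2 dyne/cm2 (-1.33, SE 0.16, adjusted p 0.0088). It rose at 80 dyne/cm2 from 8.18 ± 5.33 to 22.5 ± 22.0 CPM (1.27, SE 0.20, adjusted p 0.013), and against set 1 by 0.70 with an adjusted p of 0.33. EFNB1, the paralog of EFNB2, fell at 2 dyne/cm2 (-1.05, SE 0.15, adjusted p 0.012). Over the 10 partners tested, 3 rose and 3 fell at 2 dyne/cm2, and 1 rose and 0 fell at 80 dyne/cm2.

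Genes known to follow laminar flow served as a reference. KLF2, the flow-induced transcription factor, fell from 144 ± 30.9 to 7.83 ± 4.69 CPM at 2 dyne/cm2 (-4.35, SE 0.53, adjusted p 0.0091), and KLF4 (-2.62, SE 0.33) and NOS3, the endothelial nitric oxide synthase (-1.86, SE 0.20), fell too. At 80 dyne/cm2 KLF2 (0.44, SE 0.10, adjusted p 0.043) and NOS3 (0.74, SE 0.15, adjusted p 0.026) rose, and KLF4 was at 0.32 (SE 0.10, adjusted p 0.11). Against set 1, KLF2 at 80 dyne/cm2 was at 0.52 with an adjusted p of 0.16 and NOS3 at 0.33 with 0.48. Without replicate 2 or 3 of either group, the adjusted p at 80 dyne/cm2 was 0.14 to 0.20 for KLF2 and 0.068 to 0.21 for NOS3.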

How the data were processed

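The authors deposited raw counts per gene for 12 libraries of single-end reads. The submitters' notes and the study's methods name CASAVA 1.8.2, STAR 2.4 with Sscrofa11.1, removal of reads that mapped to several places, and featureCounts 1.4.6 over merged exons of protein coding isoforms; the strand setting is not given in the sources used here, so overlapping genes may share counts. Discarding such reads lowers genes with close copies. Symbols came from a table of gene IDs (14572 of 21153 IDs matched). Of 143 listed genes, 130 had a row.

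The fits used edgeR 4.0.16 under R 4.3.3, with TMM, glmQLFit and glmQLFTest and a donor term. A gene entered a fit if 3 or more of its libraries reached 1 CPM. Each comparison used 6 libraries, and the difference between responses 12. The standard error is the log2 fold change divided by the square root of F. Adjustment of p (Benjamini-Hochberg) ran over all genes tested, and "passed" means under 0.05. Replicate numbers follow the donor letters in the labels. Same-numbered libraries deviated together from their group means (r = 0.634 to 0.857 over 18 pairs and 11456 genes). The other 36 pairs had r of -0.514 to -0.208. Taking off means of 3 libraries pushes these below 0 when same-numbered pairs are above it, so they are no separate evidence. Alternatives were DESeq2 1.42.0, relative log expression normalization, filterByExpr, no filter, no donor term, all 12 libraries in 1 fit, the other set at 30 dyne/cm2, and each library left out in turn. Fits were tested on simulated data.

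The members and the gene lists were chosen with earlier results of these data known. Named outside the members are listed genes that passed with at least a 2-fold change, up to the 4 with the smallest adjusted p per list and comparison, and, whatever their values, NOTCH2, NOTCH3, DLL1, RBPJ, HEYL, NRARP, SOX17, SOX18, GJA4, GJA5, NRP1, NR2F2, EPHB4, KLF2 and KLF4, of which NRARP and SOX17 were not analysed here. One listed gene is not reported by name here.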

Additional observations from a re-analysis of the deposited data

Results flagged for a closer look

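The responses of 4 genes to low and to supra-high WSS differed by the test of the difference itself, over 12 libraries with a donor term. The log2 response at 80 dyne/cm2 minus that at 2 dyne/cm2 was 0.72 for NOTCH4 (adjusted p 0.031), 1.99 for DLL4 (0.023), -1.85 for HEY1 (0.0032) and 0.84 for HEY2 (0.015). HEY1 stands out by sign, since it was the only one of the 4 whose response at 80 dyne/cm2 lay below that at 2 dyne/cm2. Both responses are measured against different sets at 30 dyne/cm2. With the sets exchanged, the difference was -2.13 for HEY1 (adjusted p 0.0027), 0.56 for HEY2 (0.10), 0.18 for DLL4 (0.86) and 0.14 for NOTCH4 (0.71). HES1 and JAG1 did not pass in the main fit, at 0.59 (adjusted p 0.051) and -0.27 (0.76). With the sets exchanged both passed, at 0.95 (adjusted p 0.011) and 2.08 (0.039).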

How the results depend on the processing

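The numbers of genes past both thresholds (adjusted p under 0.05 and at least 2-fold) were 1078 at 2 dyne/cm2, 246 at 80 dyne/cm2 and 1 between the sets, and 4294 had an adjusted p under 0.05 for the difference between the responses. Without the replicate block these were 635, 0, 0 and 1746, and the members with an adjusted p under 0.05 went from 4, 1, 0 and 4 to 0 in each, with 0 past both thresholds at 2 dyne/cm2. JAG1 at 2 dyne/cm2 was then at 0.25. When each condition was set against the other cultures at 30 dyne/cm2, 3 members passed both thresholds at 2 dyne/cm2, 23 genes and 0 members passed at 80 dyne/cm2, and 2568 genes passed for the difference. Log2 fold changes then turned in sign for EFNB2 (0.030) and UNC5B (0.32) at 2 dyne/cm2, for DLL4 (-0.49), JAG1 (0.93), UNC5B (-0.23), HEYL (0.24), KAT2B (0.000197), GJA4 (1.98), NOTCH2 (-0.13) and RBPJ (-0.11) at 80 dyne/cm2, and for JAG1 (2.08, adjusted p 0.039) and UNC5B (-0.58) in the difference. With all 12 libraries in 1 fit, 136 genes and 0 members passed at 80 dyne/cm2 and 0 genes passed between the sets. Between the sets DESeq2 gave 66 genes and 0 members past both thresholds, and 1 member by the adjusted p alone. There filterByExpr gave 6 genes past both thresholds and no filter 46. By the adjusted p alone, 2895 genes and 4 members passed at 2 dyne/cm2, 940 and 1 at 80 dyne/cm2, and 2 genes between the sets. Without a filter HEY1 at 2 dyne/cm2 had an adjusted p of 0.0502. Relative log expression normalization turned no member's sign. The cause of these shifts was not tested.

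With 1 library left out, which with the donor term also takes its partner out of a comparison of 6, members past both thresholds ranged from 1 to 2 at 2 dyne/cm2, 0 to 1 at 80 dyne/cm2 and 0 to 1 between the sets. Members with an adjusted p under 0.05 ranged from 2 to 4, 0 to 4 and 0 to 1, and from 2 to 5 for the difference. Genes past the thresholds ranged from 138 to 315 at 80 dyne/cm2 and 0 to 108 between the sets. The signs of some log2 fold changes turned: at 2 dyne/cm2 JAG1 (-0.72 to 0.46), EFNB2 (-0.39 to 0.21), UNC5B (-0.33 to 0.055) and NR2F2 (-0.82 to 0.28), at 80 dyne/cm2 DLL4 (-0.065 to 0.82), HEY2 (-0.056 to 0.024), PLVAP (-0.10 to 1.41), RBPJ (-0.011 to 0.060) and SEMA3G (-0.039 to 0.18), between the sets HEY1 (-0.55 to 0.12) and EFNB2 (-0.42 to 0.18), and in the difference JAG1 (-0.84 to 0.27). At 80 dyne/cm2, leaving out replicate 1 brought PLVAP (1.41), NRP2 (1.04), EPHB4 (0.59), GJA5 (0.56), KLF4 (0.43) and NR2F2 (-0.73 to -0.72) past the test. With 3 donors and 1 library per donor and group, p-values measure the spread between these cultures.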
